A study of Rattus norvegicus with 9 samples.

Results

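Spared nerve injury was compared with sham operation in the lumbar spinal cord of male, wild-type Sprague Dawley rats. The 6 samples of this comparison are the 3 JA samples (sham-operated, saline) and the 3 SNI samples (injured, saline), of 9 samples in the series. The other 3 samples came from injured rats given paeoniflorin and liquiritin and entered only 1 alternative fit. In the SNI rats the sciatic nerve was tied and cut in its tibial and common peroneal branches, and its sural branch was spared. JA rats had the same surgery with the nerves left whole. Saline was given by gavage for 21 days after surgery in both groups. The age of the rats was not given in the sources used here. RNA came from the ipsilateral side of segments L3 to L6, so dorsal horn, ventral horn, white matter and any attached root or meninges were measured as 1 mixture. Each sample carries a biological replicate number, but the labels do not say whether it is 1 rat or a pool.

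Nerve injury of this kind leaves part of the sensory input to the cord intact and is widely used as a model of lasting neuropathic pain. Axons of motor neurons, whose cell bodies lie in the ventral horn, run in the cut branches together with sensory axons, whose cell bodies lie outside the cord in the dorsal root ganglia. In the cord, microglia and astrocytes are known to respond to such injuries, and GFAP and IBA-1 (the product of Aif1) are their usual protein markers. By immunofluorescence the study reported more of both proteins in the ipsilateral dorsal horn of SNI than of JA rats. The values here are RNA of the mixed cord, which is a different measure.

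The deposited values are TPM, a measure of transcript abundance scaled for transcript length and to the same total in every sample. They keep no read depth, so the counting error behind each value is unknown. Of 34890 loci, 15557 reached 1 TPM on average in the 6 samples and were tested with limma on log2(TPM + 1) after centring each sample on its median. A difference is given as SNI minus JA on this centred log2 scale, which understates the change of loci with low TPM. A locus was called when its unadjusted p-value was under 0.05 and its difference was above 1 or below -1.

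By this rule 38 loci were higher in SNI, which is 0.244% of the loci tested, and 45 were lower, which is 0.289%. No locus passed a Benjamini-Hochberg adjusted p of 0.05 in limma, and the smallest was adjusted p = 0.554. At an unadjusted p-value under 0.05 there were 751 loci (4.83%), of which 264 were higher in SNI (1.7% of the loci tested) and 487 were lower (3.13%). A share near 0.05 is what this threshold gives when no locus differs, so the 751 are no count of true differences. In 623 loci (4%) every SNI sample lay above every JA sample on the centred scale, and in 1068 loci (6.87%) every SNI sample lay below. With 3 samples per group such separation is also common among loci that do not differ. The standard error of the difference had a median of 0.132, and its 95% interval reached a median of 0.32 to either side. Pearson's r between samples over the loci tested was 0.954 to 0.963 for the 6 pairs within a group and 0.945 to 0.966 for the 9 pairs between groups, so the ranges overlapped. Each r is computed over genes, and genes are no substitute for replicates. Without centring, 77 loci were called higher and 30 lower in place of 38 and 45, as the median difference of all loci was then 0.12 in place of -0.01. Each list below carries this shift in values that were not centred. The share of all loci at an unadjusted p-value under 0.05 is given for the main fit only, so counts in other fits stand without it. As no locus passed the adjusted threshold, the comparison stands at the unadjusted level only for every gene described below.

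**Figure D1:**
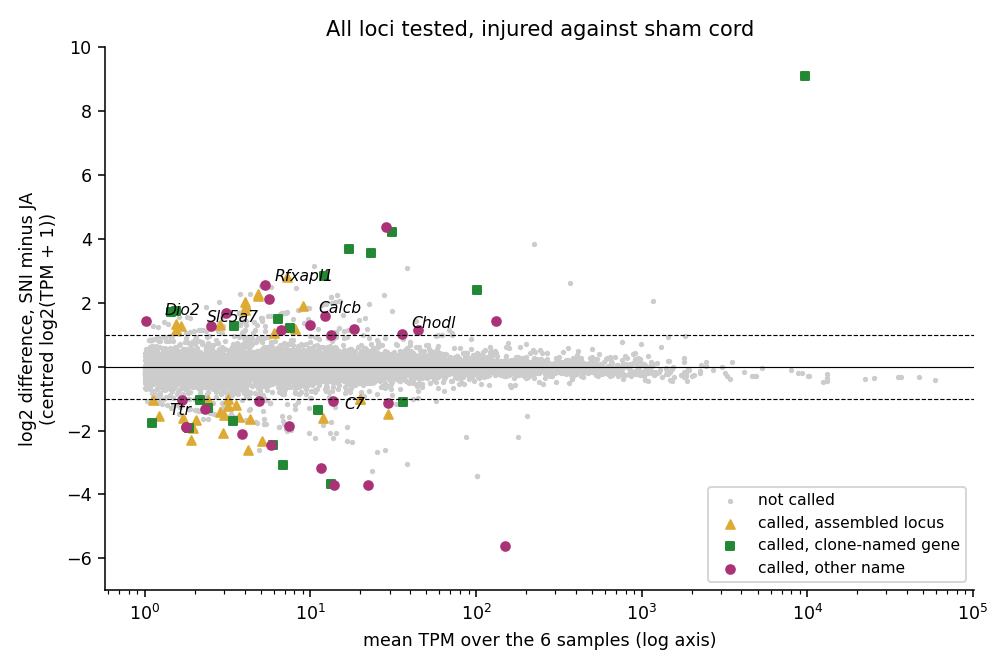
Difference between SNI and JA on the centred log2(TPM + 1) scale (vertical axis) against mean TPM over the 6 samples (horizontal, log axis) for the 15557 loci tested, 1 point per locus. Coloured points are the 83 called loci by the kind of name, dashed lines mark differences of 1 and -1, and most called loci lie at low TPM.

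Most called loci were not well-annotated genes. Of the 83, 34 were loci from the authors' transcript assembly with no gene name (41.0%, against 9.91% of all loci tested), 21 carried the name of a genomic clone (25.3%, against 5.37%) and 28 had another name. A TPM of 0 in at least 1 of the 6 samples was listed for 46 of them (55.4%, against 3.18% of all loci tested), and 17 were listed at 0 in every sample of 1 group. Their mean TPM over the 6 samples had a median of 4.88, against 9.85 for all loci tested. An exact 0 in an assembly-based table can be a failed estimate, so the loci at 0 are given by their values and without a fold.

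Among the loci higher in SNI with a name and no overlap between the groups, LOC100910237 was listed at 0 in all JA samples and at 1.52, 3.15 and 1.45 TPM in SNI replicates 1, 2 and 3. AABR07034706.1, AABR07024907.1 and a copy of the spliceosomal RNA U4 were also at 0 in all JA samples. The U4 copy was at 138, 1.65 and 31.1 TPM in SNI, a range within 1 group that is wider than most differences between the groups. Another clone-named locus, AABR07072539.7, which was picked after its values were seen, had the highest level of any called locus, at 14037 TPM in JA replicate 1, 0 in JA replicates 2 and 3, and 17326, 13983 and 12701 TPM in SNI, so 1 sham sample had a level like the injured ones. Metazoa_SRP, a locus named for the RNA of the signal recognition particle, was at 24.7, 103 and 96.1 TPM in JA and 238, 160 and 174 TPM in SNI. Small nuclear and nucleolar RNAs also stood among the lower loci. A pair of U12 copies with identical values were at 4.44, 0 and 6.14 TPM in JA and 0 in SNI, and SNORD22 was at 0, 49.6 and 33.3 TPM in JA and 0 in SNI. In each of these a JA sample shared the value 0 with the injured samples.

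Several called loci share a name or a gene with another locus, between which reads can be divided. RefSeq lists Rfxapl1 as another name of Rfxap, a subunit of the complex that drives MHC class II transcription. Rfxapl1 was called higher, at 0, 0 and 3.35 TPM in JA and 8.44, 9.09 and 11.1 TPM in SNI. Rfxap itself was at 26.9, 22.9 and 22.6 TPM in JA and 18.9, 15.1 and 17.7 TPM in SNI, with no overlap in the opposite direction. Their sum was 25.3 ± 2.06 TPM in JA and 26.8 ± 2.35 TPM in SNI (SD, n = 3), a log2 ratio of 0.08. The second locus named Rps10, for a protein of the small ribosomal subunit, was called lower, at 34.6, 31.3 and 40.6 TPM in JA and 0, 26.7 and 0 TPM in SNI. Summed with the first Rps10 locus, the level was 468 ± 36.5 TPM in JA and 449 ± 31.4 TPM in SNI (SD, n = 3). For LOC102555453 the sum did not even out. The first of its loci was at 287, 294 and 162 TPM in JA and 148, 0 and 0 TPM in SNI, and the second at 29.1, 26.2 and 8.81 TPM in JA and 3.38, 0.54 and 1.08 TPM in SNI. The summed level of LOC102555453 was 269 ± 85.2 TPM in JA and 50.8 ± 86.7 TPM in SNI (SD, n = 3), with SNI replicate 1 close to JA replicate 3.

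**Figure D2:**
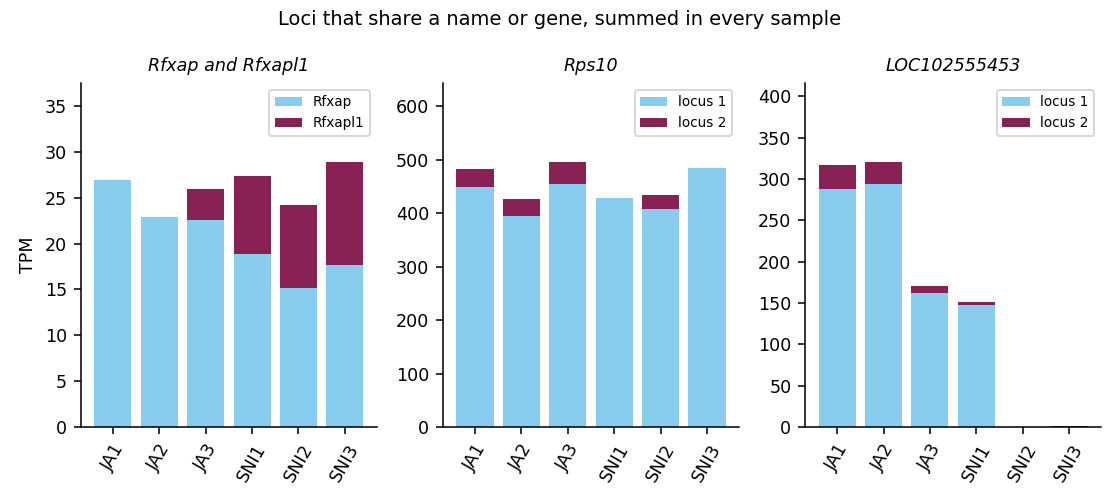
TPM of loci that share a name or a gene, stacked in each of the 6 samples (bars start at 0). The sums of Rfxap with Rfxapl1 and of the Rps10 loci are alike in JA and SNI, while the sum of the LOC102555453 loci is 0.54 and 1.08 TPM in SNI replicates 2 and 3.

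The named genes called higher included a group known from motor neurons. Motor neurons of the cord make acetylcholine, and Slc5a7 encodes the transporter that takes up choline for it. Slc5a7 was at 6.96, 2.63 and 1.79 TPM in JA replicates 1, 2 and 3 and at 9.46, 8.69 and 10.4 TPM in SNI, a difference of 1.16 with a standard error of 0.34. All injured samples lay above all sham samples, with JA replicate 1 nearest to them. Slc18a3, the vesicular acetylcholine transporter, was at 21.01, 8.40 and 4.56 TPM in JA and 26.9, 20.1 and 28.9 TPM in SNI (difference 1.19, standard error 0.44). Here JA replicate 1 lay above SNI replicate 2, so the groups overlapped. Chodl, which encodes chondrolectin and marks fast motor neurons, was at 40.0, 17.3 and 12.7 TPM in JA and 52.0, 41.0 and 50.9 TPM in SNI (difference 1.04, standard error 0.35), with the groups apart by less than 1 TPM. Without JA replicate 3 Slc5a7 was not called (difference 0.88), and Chodl was not called in 4 of the 6 fits with 1 sample left out. Slc18a3 was not called in those 4 fits either. These 3 are the called members of a list of 17 motor neuron genes, of which 13 were tested.

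The bases before the RefSeq start of these genes are shown because the 3 were called in the same direction and their upstream sequence is where shared regulators could bind. Each window holds the 250 bases before the start (GRCr8, 5′ to 3′ in the direction of the gene): chr9:7953510-7953759 on the minus strand for Slc5a7, chr16:7722815-7723064 on the minus strand for Slc18a3 and chr11:31140865-31141114 on the plus strand for Chodl. Capitals mark matches on either strand to TATAAA (the core promoter box bound by TBP), TGACG (part of the cAMP response element) and TAAT (the core of homeodomain sites, as bound by motor neuron factors).
Slc5a7: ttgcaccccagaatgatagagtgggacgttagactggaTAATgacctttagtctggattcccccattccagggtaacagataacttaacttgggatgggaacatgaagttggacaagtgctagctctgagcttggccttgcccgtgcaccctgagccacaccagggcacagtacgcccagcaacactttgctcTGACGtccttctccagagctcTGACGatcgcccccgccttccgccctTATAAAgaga
Slc18a3: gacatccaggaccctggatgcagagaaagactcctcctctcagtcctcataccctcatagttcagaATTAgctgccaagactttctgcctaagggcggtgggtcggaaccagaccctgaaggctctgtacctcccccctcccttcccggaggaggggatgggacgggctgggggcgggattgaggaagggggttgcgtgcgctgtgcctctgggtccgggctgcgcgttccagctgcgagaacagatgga
Chodl: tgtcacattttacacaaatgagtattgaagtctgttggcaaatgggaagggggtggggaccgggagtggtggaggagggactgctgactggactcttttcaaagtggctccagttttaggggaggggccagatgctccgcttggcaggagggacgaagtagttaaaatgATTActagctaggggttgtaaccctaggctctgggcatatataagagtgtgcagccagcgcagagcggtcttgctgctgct
Slc5a7 held TATAAA at position -10, TGACG at -57 and -36 and TAAT at -212, counted as the first base of the match relative to the start. Slc18a3 held only TAAT, at -184, and Chodl only TAAT, at -81. Over 33469 RefSeq promoters of the same window, TATAAA was in 12.9%, TGACG in 18.2% and TAAT in 57%, so TAAT is common to these genes and to most others. A match is a description of letters and no evidence of binding, and a window without a match says only that these letters are not in it.

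All 13 tested motor neuron genes had a positive difference, with a median of 0.77 against -0.01 for all loci tested. Of them 7 were higher at an unadjusted p-value under 0.05, 3 were called higher and 4 had no overlap on the centred scale with SNI above, where 1.7%, 0.244% and 4% of all loci tested did so. This list and the others were chosen with earlier results of these data known, so the contrast is a description and no test. Besides those above, Nefh, the heavy neurofilament chain of large axons, was at 861, 407 and 384 TPM in JA and 957, 809 and 1110 TPM in SNI (difference 0.77, standard error 0.29). Ret, a receptor for glial cell-derived growth factors, was at 12.3, 6.28 and 5.52 TPM in JA and 15.5, 12.1 and 14.4 TPM in SNI. In both, JA replicate 1 lay within the range of the injured samples. Isl2, a homeodomain factor of motor neurons, was at 1.42, 0.64 and 0.52 TPM in JA and 1.98, 1.47 and 2.49 TPM in SNI, and Esrrg, a nuclear receptor found in motor neurons, at 4.48, 2.98 and 4.13 TPM in JA and 6.42, 6.02 and 5.11 TPM in SNI, both without overlap. Chat, which makes acetylcholine and is a defining marker of the list, was at 5.36, 2.63 and 1.25 TPM in JA and 8.01, 3.93 and 7.53 TPM in SNI (difference 0.83, standard error 0.38), and did not reach the unadjusted threshold. Mnx1, Prph, Calca, Slc10a4 and Ache also had positive differences, from 0.32 to 1.21, that did not reach it. Isl1, Mmp9, Crh and Uts2b were under 1 TPM and not tested.

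The mean centred level of the 13 genes shows which samples carry the difference. It was 4.52, 3.63 and 3.35 in JA replicates 1, 2 and 3 and 4.69, 4.39 and 4.78 in SNI, so JA replicate 1 stood with the injured samples and apart from the other sham samples. The median difference was 1.14 without JA replicate 1 and 0.51 without JA replicate 3. With JA replicate 1 left out, 12 of the 13 had an unadjusted p-value under 0.05 and 8 were called, and with JA replicate 3 left out 2 and 0. Over all loci 67 were called higher without JA replicate 1 and 50 without JA replicate 3, against 38 with all samples. Other lists rose without JA replicate 1 as well, with 11 of 19 astrocyte genes then higher at an unadjusted p-value under 0.05. Leaving out JA replicate 2, SNI replicate 1 or SNI replicate 3 left 1, 1 and 2 of the 13 at that level. The difference of all 13 was positive with any 1 sample left out, except that without SNI replicate 2 only 12 were tested, and in values that were not centred (median 0.89). In bulk tissue, more motor neurons in the piece sampled and more RNA of these genes per motor neuron cannot be told apart. Markers of dorsal horn cells did not show this order of samples. The mean level of 17 genes of dorsal horn excitatory neurons was 3.97, 3.80 and 4.03 in JA and 4.001, 3.78 and 3.93 in SNI, with a median difference of -0.02 that was 0.10 in values that were not centred.

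**Figure D3:**
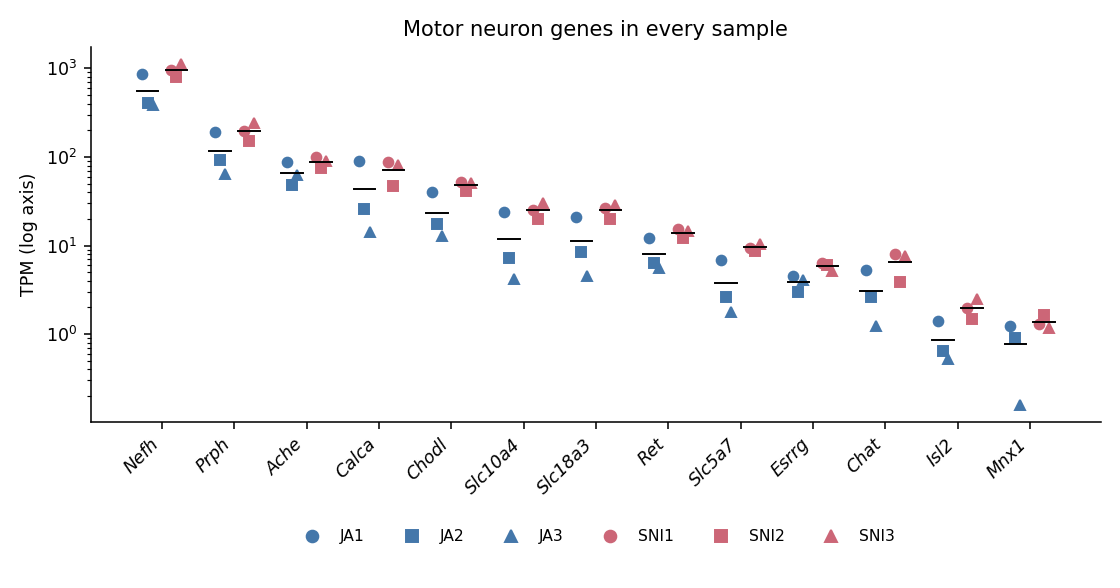
TPM (vertical, log axis) of the 13 tested motor neuron genes in each JA (blue) and SNI (red) sample, with black lines at the group means. JA replicate 1 (blue circles) lies near the SNI samples for most genes, while JA replicates 2 and 3 lie below them.

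Calcb, which encodes a calcitonin gene-related peptide, was the other called gene with a known neuronal role. It was at 10.4, 3.84 and 2.38 TPM in JA and 14.2, 13.1 and 16.0 TPM in SNI (difference 1.31, standard error 0.39), with no overlap and JA replicate 1 nearest to the injured samples. Without JA replicate 3 the difference was 0.97 and Calcb was not called. Calca, its sister gene, was at 89.97, 26.0 and 14.3 TPM in JA and 87.1, 47.2 and 81.2 TPM in SNI, with JA replicate 1 highest. Both peptides are made by motor neurons and by sensory ganglion neurons. The channels Scn10a and Scn11a and the receptor Mrgprd, which define sensory ganglion neurons, were at most 0.07 TPM in any of the 6 samples, and Trpv1, the capsaicin receptor, at most 0.74 TPM. Of 18 sensory ganglion genes only 6 were tested, of which Isl2 and Calca also belong to the motor neuron list. Of the 6, 4 had a positive difference (median 0.47). At an unadjusted p-value under 0.05, 2 were higher and 1 was called, against 1.7% and 0.244% of all loci tested. Without the filter 4 were positive and 11 negative (median -0.09). The mean level of the 6 was 2.66, 2.16 and 2.03 in JA and 2.83, 2.53 and 2.92 in SNI. Arhgap36, a regulator of protein kinase A, was called higher with overlap, at 14.5, 5.45 and 5.43 TPM in JA and 19.8, 14.2 and 20.3 TPM in SNI, and was picked after its values were seen.

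Neuronal genes in general differed less. Among 18 pan-neuronal genes 15 had a positive difference and 3 a negative one, with a median of 0.15, which was 0.02 without JA replicate 2 and 0.27 in values that were not centred, and a mean level of 7.46, 6.96 and 7.22 in JA and 7.49, 7.34 and 7.50 in SNI. The defining markers Rbfox3, Snap25 and Syt1 differed by 0.05, 0.28 and 0.05. The members with an unadjusted p-value under 0.05 were the neurofilament chains Nefm and Nefl, where 1.7% of all loci tested were higher at that level. Without JA replicate 1, 5 members had such a p-value and 2 were called. Nefm was at 1534, 674 and 725 TPM in JA and 1864, 1736 and 2134 TPM in SNI (difference 0.95, standard error 0.29), with no overlap, and Nefl at 1138, 550 and 539 TPM in JA and 1250, 1037 and 1428 TPM in SNI (difference 0.70), with JA replicate 1 inside the injured range. Of 16 genes of inhibitory neurons, which release GABA or glycine, 2 were higher at that level, against 1.7% of all loci tested, while 0 were higher and 2 lower without SNI replicate 3. Rorb, a nuclear receptor of inhibitory interneurons, was at 1.28, 1.00 and 0.54 TPM in JA and 1.97, 2.00 and 1.96 TPM in SNI, and Slc6a5, the neuronal glycine transporter, at 35.9, 25.8 and 28.3 TPM in JA and 48.9, 35.6 and 41.9 TPM in SNI. Their defining markers Gad1, Gad2 and Slc32a1 were not among them, and the median of the list was 0.04, or -0.06 without SNI replicate 1.

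Channels and receptors of excitable cells leaned the same way. Of 38 ion channel genes 32 had a positive difference (median 0.11), 2 were higher at an unadjusted p-value under 0.05 and 4 had no overlap with SNI above, against 1.7% and 4% of all loci tested. Kcnj3, a potassium channel gated by G proteins, was at 4.79, 3.23 and 3.63 TPM in JA and 6.73, 5.27 and 6.21 TPM in SNI (difference 0.42). All injured samples were higher than all sham samples for this gene. Of 35 transmitter receptor genes 32 had a positive difference (median 0.17), and 2 reached that level: Glrb, the beta subunit of the glycine receptor, at 57.5, 38.6 and 49.8 TPM in JA and 80.6, 66.7 and 67.9 TPM in SNI, and Gabrg1, a GABA-A receptor subunit, at 19.3, 14.3 and 9.81 TPM in JA and 24.5, 32.4 and 20.5 TPM in SNI. Of 26 genes of transmitter release 22 had a positive difference (median 0.15) and none reached an unadjusted p-value under 0.05. The medians of these lists were positive with each sample left out and under each scaling tried, but without SNI replicate 1 those of ion channels and transmitter release were 0.02 and 0.04. Without JA replicate 1, 7 ion channel, 10 transmitter receptor and 5 transmitter release genes were higher at an unadjusted p-value under 0.05. With a replicate block these counts were 8, 10 and 4.

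Most astrocyte genes had a positive difference whose size depended on single samples. Of 19 tested, 16 had a positive difference, the median was 0.35, and none reached an unadjusted p-value under 0.05 or had no overlap, while 2 reached it with a replicate block. The mean level of the list was 7.16, 6.84 and 6.14 in JA and 7.10, 7.13 and 6.91 in SNI, so JA replicate 3 stood below the other 5 samples. Without JA replicate 3 the median difference was 0.09 and 1 gene was lower at an unadjusted p-value under 0.05, whereas without JA replicate 1 the median was 0.62, 11 genes were higher at that level and 4 were called. Gfap, the intermediate filament of reactive astrocytes, was at 741, 707 and 374 TPM in JA and 586, 617 and 561 TPM in SNI (difference -0.11, standard error 0.23; adjusted p = 0.964, limma). The injured samples lay between the sham samples. Aqp4, the water channel, and Aldh1l1, a folate enzyme, which are the other defining markers, differed by 0.09 and 0.06. Slc1a2, a glutamate transporter, was at 42.7, 24.7 and 10.2 TPM in JA and 43.0, 38.6 and 39.2 TPM in SNI, and Gjb6, a connexin, at 62.1, 37.3 and 19.1 TPM in JA and 61.3, 67.4 and 59.6 TPM in SNI, with JA replicate 1 at the injured level in both. The angiotensinogen gene Agt had the same order, at 403, 290 and 146 TPM in JA and 413, 377 and 366 TPM in SNI (difference 0.46, standard error 0.31).

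Dio2, which encodes the deiodinase that activates thyroid hormone and is expressed in astrocytes and tanycytes, was the named gene with the smallest p among those called higher with a symbol other than a LOC or clone name. It was at 2.09, 0.79 and 0.25 TPM in JA and 3.66, 4.61 and 3.73 TPM in SNI (difference 1.27, standard error 0.30), all injured samples being above all sham samples. Without JA replicate 3 the difference was 1.00 and the gene was not called. Grifin, a galectin-related gene that was picked after its values were seen, was at 25.8, 26.3 and 18.9 TPM in JA and 54.8, 49.4 and 40.7 TPM in SNI (difference 0.88, standard error 0.14; adjusted p = 0.851, limma). The injured samples were all well above the sham samples. Slc39a12, a zinc transporter that was also picked after its values were seen, was called higher with overlap, at 12.6, 1.34 and 4.19 TPM in JA and 22.9, 23.4 and 9.19 TPM in SNI.

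Most microglial genes had a small negative difference in the injured cord. This held for 19 of 22 tested, the median was -0.24 and the range -0.63 to 0.21. In 6 the unadjusted p-value was under 0.05, all lower, and 5 had no overlap on the centred scale with SNI below, against 3.13% and 6.87% of all loci tested, while none was called. The count of 6 was 10 without JA replicate 1, 2 without JA replicate 2 or SNI replicate 2, and 3 without JA replicate 3, SNI replicate 1 or SNI replicate 3. Cd68, a lysosomal protein of phagocytes, was at 3.83, 2.97 and 4.41 TPM in JA and 2.14, 2.43 and 2.35 TPM in SNI (difference -0.63). C1qc and C1qb, chains of the first complement component, differed by -0.40 and -0.34, Trem2, a lipid receptor of microglia, by -0.39, and Irf8, a transcription factor of myeloid cells, by -0.30. Aif1 was at 60.5, 90.2 and 86.4 TPM in JA and 63.7, 61.5 and 60.2 TPM in SNI (difference -0.45, standard error 0.19; adjusted p = 0.889, limma), and JA replicate 1 lay at the level of the injured samples. The other defining markers Itgam and Cx3cr1 differed by -0.16 and -0.06. P2ry12 and Tmem119, which mark resting microglia, were among the 3 members with a positive difference, at 0.09 and 0.11, with Cd74, the invariant chain of MHC class II, at 0.21. In values that were not centred the median was -0.12, 17 of 22 were negative and 2 had an unadjusted p-value under 0.05. The mean level of the list was 4.55, 4.79 and 4.77 in JA and 4.46, 4.51 and 4.48 in SNI, with the injured samples just below the lowest sham sample.

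Of 35 inflammatory mediators listed 19 were tested. Il6, Tnf, Il1b and Il10, cytokines usually raised by nerve injury, were among those with a mean under 1 TPM. No tested member was higher at an unadjusted p-value under 0.05 and 4 were lower, against 1.7% and 3.13% of all loci tested. Without JA replicate 2 or SNI replicate 1 there was 1 higher member, and in the latter fit 1 member was called. Cxcl10, a chemokine induced by interferon, was at 4.17, 4.76 and 4.07 TPM in JA and 2.15, 2.96 and 2.46 TPM in SNI (difference -0.72, standard error 0.14). Lcn2, a secreted iron-binding protein, was at 11.6, 7.81 and 7.21 TPM in JA and 6.69, 3.82 and 4.29 TPM in SNI (difference -0.86). In both all injured samples were lower than all sham samples. Tlr2, a receptor for bacterial lipoproteins, and Tgfb1, an anti-inflammatory cytokine, differed by -0.54 and -0.27. The list's median was -0.10, from -0.24 to -0.03 with 1 sample left out, and 0.02 in values that were not centred. Cyba, the p22 subunit of the phagocyte oxidase, had the third smallest p of all named loci and was at 29.4, 30.0 and 28.3 TPM in JA and 23.7, 23.0 and 22.8 TPM in SNI (difference -0.44, standard error 0.07; adjusted p = 0.851, limma). It was picked after its values were seen, as was Pycard, an inflammasome adaptor, at 8.20, 8.86 and 9.86 TPM in JA and 5.90, 5.42 and 6.84 TPM in SNI.

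**Figure D4:**
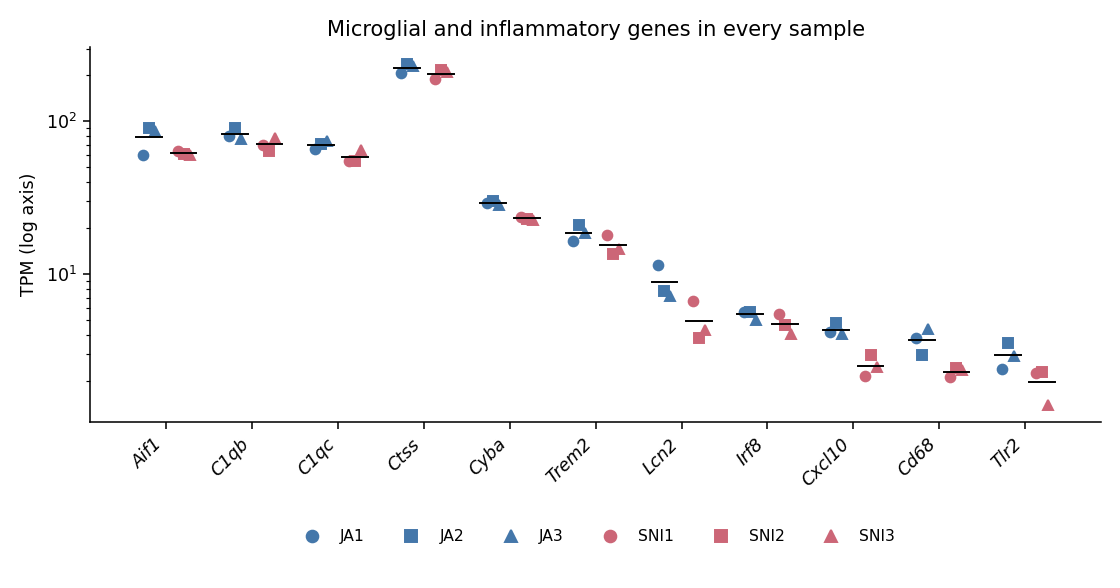
TPM (vertical, log axis) of microglial and inflammatory genes in each JA (blue) and SNI (red) sample, with black lines at the group means. Cxcl10, Cyba, Lcn2 and Cd68 have all SNI samples below all JA samples, whereas for Aif1 JA replicate 1 lies at the SNI level.

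Complement genes included a called one. C7, a component of the membrane attack complex, was called lower, at 13.7, 17.2 and 24.6 TPM in JA and 8.11, 9.36 and 8.96 TPM in SNI (difference -1.08, standard error 0.24; adjusted p = 0.889, limma). All injured samples were below all sham samples. The difference was -0.82 without JA replicate 3, and C7 was not called then or in values that were not centred. Of 18 other complement genes tested 15 had a negative difference (median -0.22), 2 were lower at an unadjusted p-value under 0.05 (C1qb and C1qc) and 1 was higher, against 3.13% and 1.7% of all loci tested. Without SNI replicate 1 none was lower or higher at that level (median -0.12), and in values that were not centred 1 was lower (median -0.10). The higher gene was Cd59, an inhibitor of the membrane attack complex, at 226, 140 and 157 TPM in JA and 258, 234 and 259 TPM in SNI. C1qtnf9, a secreted protein with a C1q-like domain, was called lower as well, at 3.15, 10.2 and 7.50 TPM in JA and 3.00, 2.38 and 3.07 TPM in SNI, where JA replicate 1 was at the injured level in TPM. C1qtnf9 was not called in values that were not centred, in the fit on all 9 samples or in 5 of the 6 fits with 1 sample left out, and its difference was -0.76 without JA replicate 2.

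Antigen presentation and interferon genes showed no common direction. Of 20 genes of MHC and antigen presentation 10 had a positive and 10 a negative difference, while 17 had a negative one without JA replicate 2. Those with an unadjusted p-value under 0.05 were Psmb8, an immunoproteasome subunit (-0.44), and RT1-DMb, which loads class II peptides (-0.30). Of all loci tested 3.13% were lower at that level. Of 23 interferon-stimulated genes 16 had a negative difference (median -0.04, and 0.08 in values that were not centred) and Xaf1 alone (-0.49), a gene linked to cell death, reached that level. Genes of infiltrating leukocytes were sparse. The T cell genes Cd3e, Cd3d and Cd2 did not reach a mean of 1 TPM, and 7 of 20 members were tested. S100a8 and S100a9, which mark neutrophils, were at 65.4 and 72.6 TPM in SNI replicate 1 and at most 20.4 TPM in the other samples.

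All 21 oligodendrocyte genes had a negative difference, each of them small. The median was -0.21 and the range -0.35 to -0.04, 4 were lower at an unadjusted p-value under 0.05 and 8 had no overlap on the centred scale with SNI below, against 3.13% and 6.87% of all loci tested. The count of 4 was 15 without JA replicate 1 and 1 without JA replicate 2 or SNI replicate 2. Mag, a myelin adhesion protein, was at 759, 798 and 709 TPM in JA and 720, 697 and 679 TPM in SNI (difference -0.23), so the groups overlapped in TPM and not after centring. Gjb1, a connexin of myelin, differed by -0.30, Cnp, a myelin enzyme, by -0.27 and Hapln2, a matrix link protein at nodes, by -0.21. The defining markers Mbp and Mog, which encode myelin proteins, differed by -0.31 and -0.21 and did not reach that threshold. In values that were not centred 18 of 21 were negative, the median was -0.09 and none reached it. Genes of oligodendrocyte precursors had a median of 0.01.

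Vascular genes also had negative differences. All 18 endothelial genes did (median -0.19), and 4 were lower at an unadjusted p-value under 0.05, against 3.13% of all loci tested. The 4 became 1 without JA replicate 2, SNI replicate 1 or SNI replicate 2, and 1 in values that were not centred. Cldn5, the tight junction protein of the blood-brain barrier and a defining marker, was at 249, 315 and 252 TPM in JA and 200, 219 and 208 TPM in SNI (difference -0.49, standard error 0.12), with no overlap. Vwf, the clotting factor of endothelium, Esam, an adhesion molecule, and Egfl7, a secreted vascular protein, differed by -0.33, -0.40 and -0.29. The mean level of the list was 4.62, 5.20 and 4.78 in JA and 4.50, 4.67 and 4.73 in SNI, with JA replicate 2 highest. Without JA replicate 2 the median was -0.03 and 11 of 18 were negative. Of 15 mural cell genes 14 were negative (median -0.24), and the same sample was highest, with a median of -0.04 without it.

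Meningeal and matrix genes had negative medians and varied between samples. Of 17 meningeal and fibroblast genes 15 had a negative difference (median -0.33) and 4 were lower at an unadjusted p-value under 0.05, against 3.13% of all loci tested. The 4 became 0 in values that were not centred and 1 without JA replicate 2, SNI replicate 1 or SNI replicate 3. Ptgds, a prostaglandin synthase of the meninges, was at 1749, 1757 and 1544 TPM in JA and 1604, 1342 and 1435 TPM in SNI, and Bgn, the proteoglycan biglycan, at 34.7, 40.2 and 36.7 TPM in JA and 26.6, 35.0 and 30.3 TPM in SNI. Foxc1, a transcription factor of the meninges, and Igf2, a growth factor, differed by -0.45 and -0.50. Of 27 collagen and matrix genes 26 were negative (median -0.29), and the defining marker Col1a1 was at 18.2, 18.1 and 50.3 TPM in JA and 12.9, 36.5 and 18.1 TPM in SNI, with JA replicate 3 and SNI replicate 2 high. Without JA replicate 3 the median of the matrix list was -0.05. Ttr, the thyroxine carrier of the choroid plexus, was called lower, at 1.66, 1.55 and 8.35 TPM in JA and 1.07, 0.60 and 0.53 TPM in SNI, with JA replicate 3 far above the other samples. It falls outside the rule for named genes and was picked after its values were seen.

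Genes of peripheral tissue varied more between samples of a group than between groups. Prx, a protein of myelinating Schwann cells, was at 13.9, 2.37 and 124.7 TPM in JA and 8.50, 73.7 and 27.4 TPM in SNI. Pmp2, a lipid-binding protein of peripheral myelin, was at 13.5, 4.84 and 327 TPM in JA and 31.5, 134.9 and 47.1 TPM in SNI. The mean level of 16 Schwann cell genes was 3.72, 2.85 and 5.85 in JA and 3.48, 5.25 and 4.32 in SNI, so JA replicate 3 and SNI replicate 2 were highest. JA replicate 3 was also the sample with the lowest astrocyte and motor neuron levels, and the part of peripheral tissue in those differences was not tested. Of 11 skeletal muscle genes 10 had a positive difference, which came from SNI replicate 1. Acta1, the actin of skeletal muscle, was at 35.3 TPM there and at most 10.5 TPM in the others, and the median of 0.51 was -0.23 without that sample. Haemoglobin Hba-a1 was at 2797, 2805 and 5737 TPM in JA and 3339, 3646 and 2179 TPM in SNI, and the 12 blood genes had a median of -0.45, or -0.06 without JA replicate 3. Of 16 ependymal genes 15 were negative (median -0.22), or 0.04 in median without SNI replicate 1.

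**Figure D5:**
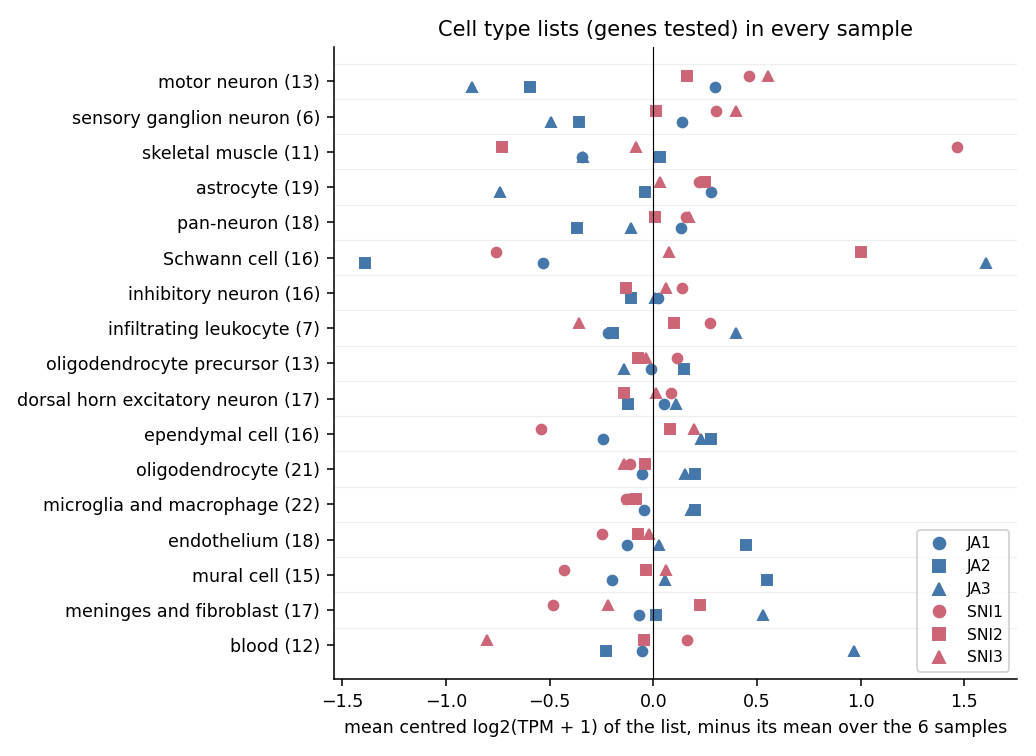
Mean centred log2(TPM + 1) level of each cell type list in every JA (blue) and SNI (red) sample, minus the list's mean over the 6 samples (horizontal), with the number of genes tested in brackets. Schwann cell genes spread most within the groups, skeletal muscle genes are high in SNI replicate 1, and JA replicate 1 lies with the SNI samples for motor neuron genes.

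Genes that injured neurons are known to switch on had a small positive median. Of 35 axotomy response genes 26 were tested, 17 with a positive difference (median 0.09), and none had an unadjusted p-value under 0.05. With a replicate block 1 was higher and 2 were lower at that level, and in the fit on all 9 samples 1 was higher and 1 lower. In values that were not centred 22 were positive, 3 had an unadjusted p-value under 0.05 and 1 was called. The median of all loci was 0.12 in those values. Without JA replicate 3, 1 gene passed each of these thresholds, whereas without JA replicate 2 the median was -0.03. Atf3, the best known of them, was at 1.81, 1.66 and 5.39 TPM in JA and 4.44, 9.90 and 5.80 TPM in SNI (difference 0.90, standard error 0.44), with JA replicate 3 above SNI replicate 1. Gap43, a growth cone protein, differed by -0.06. Hspb1, a small heat shock protein, was at 131, 86.8 and 59.1 TPM in JA and 140, 126 and 185 TPM in SNI (difference 0.63, standard error 0.27).

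Immediate early and glucocorticoid-induced genes had positive medians that depended on single samples. Of 24 immediate early genes 17 had a positive difference (median 0.24) and none had an unadjusted p-value under 0.05. In values that were not centred, where the median of all loci was 0.12, 22 were positive, 5 were higher at that level and 3 were called. Without JA replicate 3 these last counts were 5 and 4. The median was 0.12 without JA replicate 1 and 0.04 without SNI replicate 2, where 14 of 24 were positive. Ccn1, a matricellular protein, was at 7.14, 7.30 and 27.6 TPM in JA and 29.3, 37.2 and 23.9 TPM in SNI, and Dusp1, a phosphatase of MAP kinases, at 39.7, 19.7 and 55.8 TPM in JA and 55.0, 105 and 79.2 TPM in SNI. In both JA replicate 3 reached the injured range. Apold1, an endothelial early response gene picked after its values were seen, was called higher with overlap, at 22.2, 15.4 and 36.6 TPM in JA and 41.0, 111 and 42.7 TPM in SNI, which is an overlap on the centred scale only. Of 18 glucocorticoid-induced genes 16 had a positive difference (median 0.26), and 12 did without SNI replicate 3 (median 0.08). Ddit4, an inhibitor of mTOR signalling, was higher at an unadjusted p-value under 0.05 (0.49) and Angptl4, an inhibitor of lipoprotein lipase, lower (-0.62). Among 22 heat shock genes (median 0.10) Hspa4l and Hsph1, both co-chaperones, were higher at that level, by 0.33 and 0.22, and 3 genes had no overlap with SNI above, where 4% of all loci tested had none. In values that were not centred, where the median of all loci was 0.12, 8 heat shock genes were higher at that level.

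Transcripts of mitochondria and ribosomes had negative medians. The 13 protein genes of the mitochondrial genome took 25.3%, 32.8% and 29.3% of all TPM in JA and 23.7%, 26.1% and 24.1% in SNI, so JA replicate 1 lay between the injured samples. All 13 had a negative difference (median -0.33), but the median was -0.05 after quantile normalization. Mt-cyb, for cytochrome b, and Mt-nd1, for a complex I subunit, had an unadjusted p-value under 0.05, at -0.49 and -0.46. Of all loci tested 3.13% were lower at that level. Without JA replicate 1, 11 of the 13 had such a p-value. Nuclear genes of the respiratory chain had a median of -0.01 over 71 genes. In values that were not centred 68 were positive and 5 were higher at that level. Their median was then 0.11, where that of all loci was 0.12. Of 72 cytosolic ribosomal protein loci 68 had a negative difference (median -0.19), 7 were lower at an unadjusted p-value under 0.05 and 21 had no overlap on the centred scale with SNI below, against 3.13% and 6.87% of all loci tested. The count of 7 moved with the fit, to 24 after quantile normalization, 36 with a replicate block, 21 without JA replicate 1 and 0 without SNI replicate 2. Rps2 was at 719, 753 and 801 TPM in JA and 651, 661 and 713 TPM in SNI (difference -0.29), and Rpl17 at 780, 764 and 965 TPM in JA and 706, 659 and 725 TPM in SNI (difference -0.38), all injured samples lying below the sham samples in both. In values that were not centred the median of the ribosomal list was -0.07. The called ribosomal locus, named Rpl8, was at 13.3, 11.4 and 3.94 TPM in JA and 5.89, 0 and 0 TPM in SNI, a level far under that of the other ribosomal protein genes.

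Among calcium signalling and lipid genes, which the study followed, none was called in the main fit. By quantitative RT-PCR, a different measure, the study reported a rise of Hrh1, Tacr1, Adora2b, Ednrb and Agt with neuropathic pain. Of 45 calcium signalling receptor genes 24 were tested, and 17 of these had a positive difference (median 0.11). Without the filter 22 were positive and 23 negative (median -0.004). Only Hrh1, the H1 histamine receptor, had an unadjusted p-value under 0.05. This count of 1 became 4 without JA replicate 1, 3 in values that were not centred and 0 without JA replicate 2 or SNI replicate 1. Hrh1 was at 1.06, 0.51 and 0.28 TPM in JA and 1.68, 1.73 and 1.24 TPM in SNI (difference 0.56, standard error 0.21; adjusted p = 0.889, limma), without overlap. With a pseudocount of 0.1 its difference was 1.21 and it was called. Tacr1, the substance P receptor, was at 1.67, 0.99 and 0.49 TPM in JA and 2.40, 1.23 and 1.42 TPM in SNI. Adora2b, an adenosine receptor, differed by 0.37 with a standard error of 0.19, and Ednrb, the endothelin B receptor, by 0.37 with a standard error of 0.25, both with overlap. Of 61 glycerophospholipid genes 35 had a positive difference (median 0.02). In values that were not centred 51 were positive (median 0.14, against 0.12 for all loci). In that fit 10 were higher at an unadjusted p-value under 0.05 and 0 lower. Lcat, which esterifies cholesterol, and Pcyt1b, of phosphatidylcholine synthesis, were higher at an unadjusted p-value under 0.05, by 0.28 and 0.30, and Dgka, a diacylglycerol kinase, and Agpat4, an acyltransferase of phosphatidic acid synthesis, were lower, by -0.21 and -0.20. These shares of the list are near the 1.7% and 3.13% of all loci tested. Of 33 sphingolipid genes 19 had a negative difference (median -0.04). In values that were not centred 24 were positive (median 0.09, against 0.12 for all loci). In those values 2 were higher and 0 lower at an unadjusted p-value under 0.05. In the centred fit S1pr5, a receptor of oligodendrocytes, and Cers2, a ceramide synthase, were lower at that level, by -0.19 and -0.26. Cholesterol synthesis genes had a median of -0.06 over 23 genes, and none reached it. Without centring 18 of them were positive (median 0.07, against 0.12 for all loci) and 1 reached it.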

How the data were processed

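The authors trimmed adaptors and low-quality reads, aligned the rest (HISAT2 version 2.0) and estimated expression in StringTie version 1.3.3b, and the submitters' processing notes add fastp version 0.19.5. Those notes name the human build GRCh38.p13 although the identifiers are of rat genes, so no coordinates of the files are given. The values the authors deposited are TPM for 34890 loci, rounded to 2 decimals, with a total of 1000000 in each sample. Read depth is unknown, and the count test that the authors used was not run because the table holds no counts. Groups follow the sample labels, with 3 samples each.

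Loci that averaged at least 1 TPM in the 6 samples were fitted on log2(TPM + 1), centred on each sample's median, in limma version 3.58.1 under R version 4.3.3. The variance followed a trend over expression, no covariate was used, and p-values were adjusted over all loci tested. Calls took a difference above 1 or below -1 with an unadjusted p-value under 0.05, the thresholds of the study. The calling was tested on simulated data. P-values measure the spread between samples that the labels call biological replicates.

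Genes were named by a rule: up to 15 per direction with the smallest p among called loci with a symbol and no overlap whose higher group averaged at least 1 TPM (13 higher were eligible); in each of 41 lists, called members, otherwise up to 4 with the smallest p, and the 3 defining markers of a cell type; and genes the study's text names. A few genes that this rule names are not reported here. The members and lists were chosen with earlier results of these data known. Of 1051 list entries 1008 matched, 17 of them through RefSeq names. Promoter windows come from RefSeq (GRCr8) and matched for 3 of 4 genes. Alternatives were other scalings, pseudocounts, filters and fits, a block for the replicate number, and fits with any 1 sample removed.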

Additional observations from a re-analysis of the deposited data

How the results depend on the processing

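The number of loci called higher was 38 and lower 45. Without centring 77 were called higher, with a pseudocount of 0.1 58, with at least 1 TPM in every sample 19 higher and 15 lower, with Ensembl genes only 24 lower, and with a 1.5-fold threshold for calling 82 higher and 125 lower. Leaving out 1 sample gave 34 to 67 higher, 35 to 54 lower and 0 to 6 at an adjusted p under 0.05 (limma), against 0 with all samples. The largest counts were 67 higher without JA replicate 1 and 6 adjusted without SNI replicate 2. The 6 were listed at 0 in SNI replicate 2, except Rps10, which was listed at 0 in the other 2 SNI samples. Deviations of same-numbered samples correlated over genes at 0.12, -0.05 and 0.06, and those of differently numbered samples at -0.19 to 0.14. Whether the replicate numbers pair the samples was not tested. The fit with a replicate block gave 45 higher and 51 lower. Between 34 and 82 of the 83 calls were shared under the alternatives with the same thresholds, 27 with the stricter filter. Of 28 named called loci 5 stayed called with each sample left out, and none under every alternative. A locus that a filter removed counts here as not called, and for some loci this was the only loss. The median of 20 of 41 lists changed sign under at least 1 of 16 alternatives. A DESeq2 fit was not run, since the table holds no counts. The cause of these shifts was not tested.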

Other observations

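Hox genes, which keep the position of a cell along the body axis, were measured in all samples. Of 15 posterior Hox genes 10 had a positive difference between SNI and JA (median 0.06). In values that were not centred 14 did (median 0.18, against 0.12 for all loci). Hoxd8 was lower at an unadjusted p-value under 0.05, at 10.8, 10.7 and 9.68 TPM in JA and 9.77, 10.4 and 9.33 TPM in SNI, a difference of -0.20 with overlap in TPM and none after centring. In values that were not centred no posterior Hox gene was lower at that level and 2 were higher. With 1 sample left out, a posterior Hox gene was lower at that level only when it was SNI replicate 2. Of 10 anterior Hox genes 9 had a negative difference (median -0.10, and 0.03 in values that were not centred). Among these Hoxa4 was at 5.03, 5.47 and 4.92 TPM in JA and 4.95, 3.56 and 4.27 TPM in SNI (difference -0.35), and Hoxd4 at 21.4, 17.5 and 19.2 TPM in JA and 16.4, 18.2 and 17.8 TPM in SNI (difference -0.26).

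Circadian clock genes had a median difference of 0.09 over 17 genes, 13 of them positive, and none had an unadjusted p-value under 0.05. Without JA replicate 1, 3 did, and 1 did in values that were not centred or with a replicate block. Without JA replicate 3 the median was -0.02 with 6 positive. In values that were not centred it was 0.21 with 17 positive, against a median of 0.12 for all loci. The largest was that of Nr1d1, a clock repressor, at 17.2, 11.4 and 10.5 TPM in JA and 21.4, 17.8 and 15.1 TPM in SNI. Proliferation genes had a median of -0.01 over 10 genes and none reached that level. Among 8 replication-dependent histone genes Hist2h2be was higher, at 2.99, 3.17 and 1.45 TPM in JA and 4.18, 7.16 and 5.91 TPM in SNI (difference 0.83), and did not reach that level without SNI replicate 2. A related locus outside the list, Hist2h2aa3, which was picked after its values were seen, was at 90.2, 59.2 and 61.2 TPM in JA and 44.9, 49.5 and 46.5 TPM in SNI (difference -0.67, standard error 0.14), so a pair of histone genes of the same cluster differed in opposite directions without overlap.

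The named locus with the smallest p of all, LOC103694879, was at 14.0, 12.6 and 13.2 TPM in JA and 6.41, 6.66 and 7.49 TPM in SNI (difference -0.98, standard error 0.10; adjusted p = 0.554, limma), just under the size needed for a call. Also picked after their values were seen, Coa6, an assembly factor of cytochrome oxidase, was at 18.0, 13.2 and 7.93 TPM in JA and 23.6, 36.5 and 25.8 TPM in SNI (difference 1.00), and Ripk1, a kinase of cell death signalling, at 4.71, 3.69 and 5.18 TPM in JA and 8.04, 9.34 and 6.80 TPM in SNI (difference 0.59, standard error 0.16), without overlap in either gene.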
